A study of Homo sapiens with 6 samples.

Results

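The ALYREF siRNAs siRNA5 and siRNA8 were compared directly with each other in 786-O, a line derived from a human renal carcinoma of the clear cell type. The comparison took all 4 libraries transfected with an ALYREF siRNA out of the 6 libraries of the series, 2 with siRNA5 and 2 with siRNA8. The other 2 libraries carried a non-targeting control siRNA (NTC, Qiagen Allstars) and served as the common reference. All cells grew in RPMI with 10% FBS, were transfected with DharmaFECT 1, received fresh medium at 24 h and were harvested at 48 h, and polyadenylated RNA was read as paired ends of 42 nt. Both ALYREF siRNAs were Qiagen FlexiTube products, and their sequences were not used here.

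For each of the 11679 genes the direct difference is the log2 fold change of siRNA5 over NTC minus that of siRNA8 over NTC, so that the NTC level cancels. A difference of 1 is a 2-fold higher level with siRNA5. A gene was called at a Benjamini-Hochberg adjusted p under 0.05, from the difference over a standard error (SE) that is an upper bound, because it leaves out the covariance of the shared NTC. The deposited tables hold no values per library, so levels below are group means in normalized counts rebuilt from the gene mean and both fold changes. The SE given beside them belongs to the log2 difference between the siRNAs, and no error of a group mean was computed. The group means stand in for the values in single libraries, and whether single libraries of the 2 groups overlap cannot be read from them. Nothing in the labels says that the duplicates came from separate cultures, so the p-values rest on a spread between duplicates that may be technical.

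ALYREF is an adaptor of the TREX complex, which couples the packaging of nuclear messenger RNA to its export through the nuclear pore. An siRNA guides Argonaute to a transcript that it matches in full. Its seed, bases 2 to 8 of the guide strand, can also pair with sites in the 3' UTRs of other transcripts and lower them, as a microRNA does. Different siRNAs to 1 gene share the intended target and usually not the seed.

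ALYREF itself was at 7711 normalized counts with NTC, 437 with siRNA5 and 604 with siRNA8. Both siRNAs left a small share of the NTC level, 5.67% with siRNA5 and 7.83% with siRNA8. The residual level was lower with siRNA5, with a difference of -0.47 (SE 0.13, 95% interval -0.72 to -0.22, adjusted p = 0.00152).

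In the direct comparison 3739 genes (32.0%) were called, of which 2008 (17.2%) were higher with siRNA5 and 1731 (14.8%) were lower. The differences were mostly modest: the median absolute difference of the called genes was 0.52, or 1.44-fold. A difference of at least 2-fold was called for 270 genes (2.31%) that were higher with siRNA5 and 245 genes (2.1%) that were lower. The median difference over all genes was 0.0005, so the differences were centred close to 0. Among 5538 genes whose mean reached 500, the SD of the difference was 0.40 and the median SE 0.10. For the 1423 genes with a mean under 50 the median SE was 0.62, and only large differences were detectable there. The 95% interval lay within 1.25-fold in either direction for 1772 genes (15.2%).

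**Figure D1:**
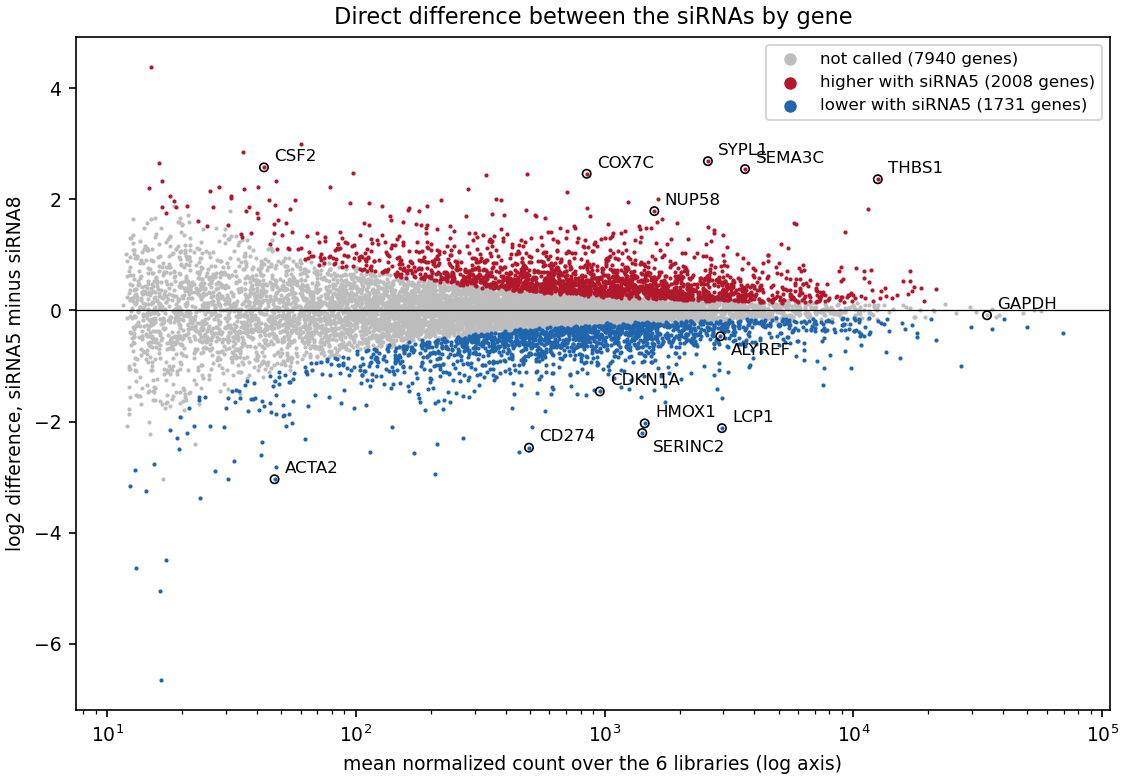
Log2 difference of siRNA5 minus siRNA8 (vertical axis) against the mean normalized count over the 6 libraries (horizontal log axis), 1 point per gene for 11679 genes; red points were called higher with siRNA5 (2008), blue points lower (1731) and grey points were not called. SYPL1, SEMA3C, COX7C and THBS1 stand above 2, CD274, SERINC2, LCP1 and HMOX1 below -2, and grey points spread widest at low means, where the SE is large.

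Genes above the median level that were higher with siRNA5 were led by SYPL1, a vesicle membrane protein related to synaptophysin. SYPL1 stood at 2634 normalized counts with NTC, 4472 with siRNA5 and 696 with siRNA8, a difference of 2.68 (SE 0.081, adjusted p = 2.15e-235). SEMA3C, a secreted semaphorin that guides migrating cells, stood at 3741 with NTC, 6200 with siRNA5 and 1065 with siRNA8, a difference of 2.54 (SE 0.080). In both genes the NTC mean lay between the siRNA means. THBS1, the matrix glycoprotein thrombospondin-1, had the same order at a higher level, with 12041 for NTC, 21395 for siRNA5 and 4171 for siRNA8, a difference of 2.36 (SE 0.095). COX7C, a small subunit of cytochrome c oxidase, was at 1185 with NTC and 1147 with siRNA5 but at 209 with siRNA8, a difference of 2.46 (SE 0.14). TVP23B, a Golgi membrane protein, was at 498 with NTC, 818 with siRNA5 and 150 with siRNA8. TVP23B has a near-identical paralog, and reads may have been split between the copies.

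Lower in this ranking came AIFM2, a ubiquinone reductase that limits lipid peroxidation, at 764 with NTC, 1106 with siRNA5 and 253 with siRNA8. TWF1, twinfilin-1, which binds actin monomers, was at 2065 with NTC, 2289 with siRNA5 and 570 with siRNA8, or 4.02-fold higher with siRNA5. FSTL1, a secreted follistatin-like glycoprotein, was at 13686, 16030 and 4533 in the same order. NUP58, a channel nucleoporin of the nuclear pore, was at 1315 with NTC, 2665 with siRNA5 and 773 with siRNA8. HAVCR1, the kidney injury molecule KIM-1, was at 725 with NTC, 1453 with siRNA5 and 449 with siRNA8. Of the 15 genes with the largest positive differences, NTC lay between the siRNA means in 14 and above both in 1, which was COX7C. Their differences ran from 1.69 to 2.68.

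Among genes above the median level, those lower with siRNA5 were led by CD274, the immune checkpoint ligand PD-L1. CD274 was at 290 normalized counts with NTC, 184 with siRNA5 and 1016 with siRNA8, a difference of -2.47 (SE 0.16, adjusted p = 7.13e-53), or 5.54-fold higher with siRNA8. LCP1, the actin-bundling protein L-plastin, was at 2358 with NTC, 1221 with siRNA5 and 5304 with siRNA8, a difference of -2.12 (SE 0.079, adjusted p = 1.77e-155). In LCP1 and CD274 the siRNA means stood on opposite sides of NTC. HMOX1, heme oxygenase-1, which degrades heme under oxidative stress, was at 776 with NTC and 702 with siRNA5, against 2870 with siRNA8. SERINC2, of the serine incorporator family, showed the reverse layout: 1647 with NTC and 2140 with siRNA8, against 464 with siRNA5. HMOX1 was thus set apart by a high level with siRNA8 and SERINC2 by a low level with siRNA5. DUSP10, a phosphatase that inactivates p38 and JNK, was at 331 with NTC, 226 with siRNA5 and 973 with siRNA8.

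Further down were AKAP12, a scaffold for protein kinase A, at 2302 with NTC, 1651 with siRNA5 and 4914 with siRNA8, and the transcription factor FOXD1, at 535, 338 and 954. CDKN1A, the cyclin-dependent kinase inhibitor p21, was at 1108 with NTC, 470 with siRNA5 and 1290 with siRNA8, a difference of -1.46 (SE 0.14). VOPP1 was at 1070 with NTC, 372 with siRNA5 and 1075 with siRNA8. Of the 15 genes with the largest negative differences, NTC lay between the siRNA means in 14 and above both in 1, which was CHPF2, a chondroitin synthesis enzyme (2148 with NTC, 698 with siRNA5, 1893 with siRNA8). Their absolute differences ran from 1.44 to 2.47, with adjusted p-values of at most 5.11e-11.

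**Figure D2:**
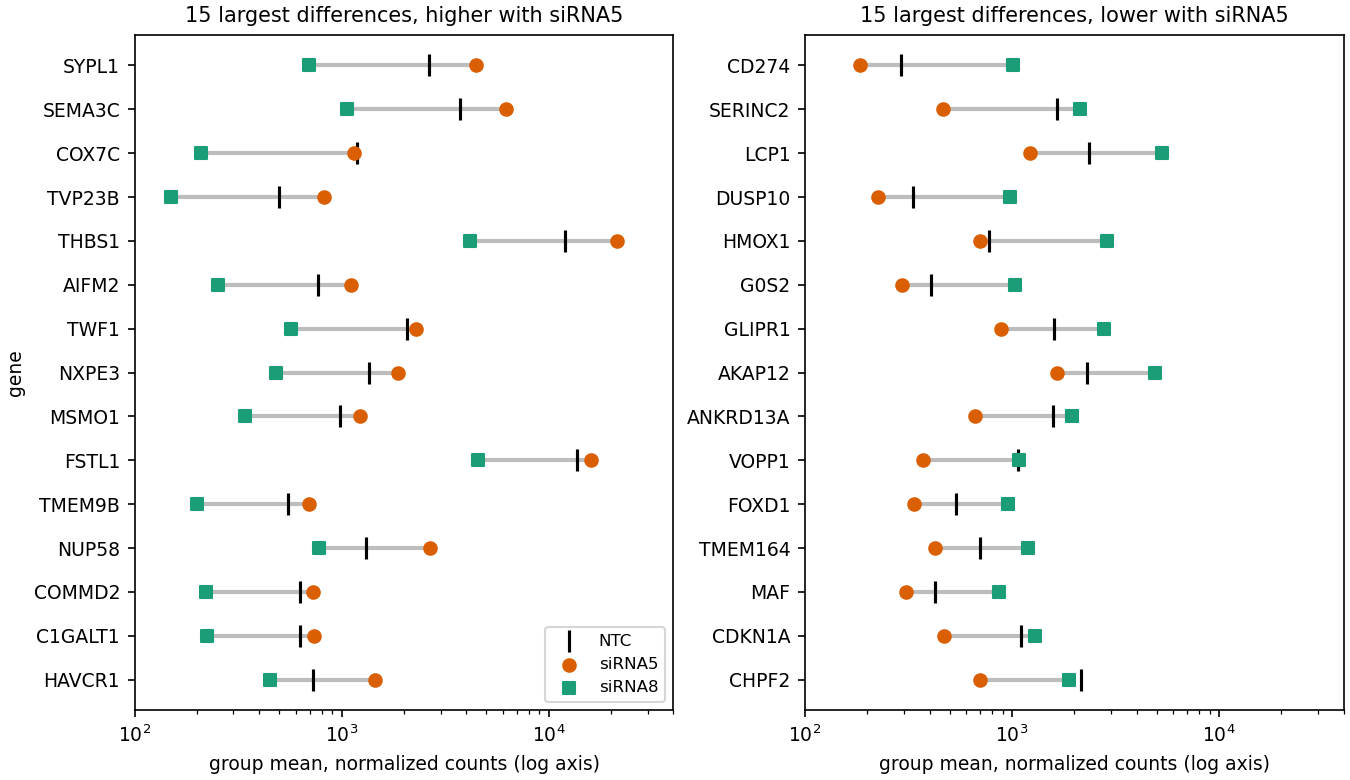
Rebuilt group means in normalized counts (horizontal log axis) of NTC (black tick), siRNA5 (orange circle) and siRNA8 (green square) for the 15 genes with the largest positive (left) and the 15 with the largest negative differences (right) among genes at or above the median mean; no error bars are drawn, and the differences have SEs of 0.079 to 0.26. On the left siRNA8 lies far below NTC in COX7C, TWF1 and MSMO1, whereas on the right siRNA5 lies below NTC in SERINC2, VOPP1 and CDKN1A and siRNA8 above it in CD274, LCP1 and HMOX1.

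Sequences shared by these transcripts were sought in their 3' UTRs, taken from the longest coding transcript of each gene in GENCODE release 29 (GRCh38). A 3' UTR was found for 10906 genes (93.4%). Each word of 7 bases held by at least 200 genes, 13873 words in all, was given the median direct difference of genes with the word minus that of genes without it. Over these words the median value was 0.035, and the 5th to 95th percentiles ran from -0.021 to 0.083. The highest value, 0.204, belonged to ACTAGAA (word A), held by 1322 genes (12.1%). The lowest, -0.137, belonged to ACGCTGA (word B), held by 295 genes (2.70%). A form shifted by 1 base stood near the end of the range in each case: CTAGAAA had 0.15 and AACGCTG had -0.131. TTTACGA, which is no shifted form of word A, stood above CTAGAAA with 0.154. Close below CTAGAAA came TACTAGA (0.144), also shifted by 1 base, and the unrelated words ATTCGTG (0.144) and TCGAAAT (0.140). At the low end ACGCTGT (-0.119) and GACGCTG (-0.118), which overlap word B, followed AACGCTG. Words A and B were picked from this ranking, so their values are a description with no test.

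The transcript of ALYREF, of 1088 bases with the coding part from base 7 to base 801, holds word A and word B exactly once each, both in the coding sequence. Word A occurs anywhere in the transcript for 18.97% of genes and word B for 10.8%. The sites are shown with 9 bases on either side, from 5' to 3' on the transcript strand, with the word or its shifted form in capitals. They come from ALYREF, from genes that were higher with siRNA5 (SYPL1 to MSMO1), and from genes that were lower (VOPP1 and TMEM164).
ALYREF, word A: ggtggcatgACTAGAAaccgtggcg
ALYREF, word B: gaatttggaACGCTGAagaaggcgg
SYPL1, shifted word A: gtgcctttcCTAGAAAgttaagatg
SEMA3C, word A: ggctgcaaaACTAGAAttgttgcat
COX7C, word A, first site: aacactgttACTAGAAcagtagctg
COX7C, word A, second site: gtggatcaaACTAGAActcatatgc
THBS1, word A, first site: ggaggactcACTAGAAttagcaaac
THBS1, word A, second site: ctattaaacACTAGAAaggactggc
MSMO1, word A: gttttggatACTAGAAgtattaatc
VOPP1, word B, first site: gatgtgtgaACGCTGAcctgtcctg
VOPP1, word B, second site: ctactgtgaACGCTGAtcctgcata
TMEM164, word B: aagacactgACGCTGAttatggagg

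On GRCh38 the ALYREF words lie in coding exons on the minus strand, word A at chr17:81888393-81888399 and word B at chr17:81889302-81889308. The other sites lie in annotated 3' UTRs. SYPL1 holds its shifted word at chr7:106091639-106091645 (minus strand), in all 4 of its coding transcripts. SEMA3C holds word A at chr7:80744600-80744606 (minus strand), in 1 of 2 coding transcripts. COX7C holds it at chr5:86619925-86619931 and chr5:86620713-86620719 (plus strand), and all 3 of its coding transcripts hold the word. The first and second THBS1 sites are at chr15:39595760-39595766 and chr15:39598242-39598248 (plus strand), and another copy follows at chr15:39598388-39598394. MSMO1 holds word A at chr4:165342222-165342228 (plus strand). Word B lies in VOPP1 at chr7:55471577-55471583 and chr7:55470871-55470877 (minus strand), in 3 of 9 coding transcripts, and in TMEM164 at chrX:110176910-110176916 (plus strand). Which of these transcripts 786-O cells use was not tested.

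Genes with word A had a median difference of 0.19, and genes without it of -0.02. Word A carriers were called higher in 36.2% of cases and lower in 9.83%, whereas genes without it were called higher in 15.6% and lower in 16.3%. In the authors' deposited tables the carriers' median log2 change against NTC was -0.088 with siRNA8 and 0.092 with siRNA5. Genes without the word had medians of 0.020 with siRNA8 and 0.0043 with siRNA5 in the same tables. Over all these genes the value of word A thus had a part from each siRNA, in opposite directions. In each tertile of 3' UTR length and transcript GC, medians with and without word A lay farther apart with siRNA8 than with siRNA5. In the low GC tertile they were -0.061 and 0.087 with siRNA8, and 0.16 and 0.13 with siRNA5.

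Genes with word B had a median difference of -0.13, against 0.0048 for genes without it. Word B carriers were called lower in 26.4% of cases and higher in 16.3%, against 15.2% lower and 18.2% higher for genes without it. In the authors' deposited tables the word B carriers' median log2 change was -0.14 with siRNA5 and -0.0019 with siRNA8. For genes without word B it was 0.016 with siRNA5 and 0.011 with siRNA8. The low value of word B thus lay mainly on the siRNA5 side.

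Medians moved in the order join, leading word, shifted word, 6 shared bases and none, apart from the shifted and 6-base forms of word B. For word A, 586 genes with the 8-base join of the word and its shifted form, ACTAGAAA, had a median of 0.21. The 736 genes with the leading word alone had 0.17, the 1083 genes with the shifted word alone 0.085, and the 1422 genes with the 6 shared bases alone 0.023. The 7079 genes with none of these stood at -0.039. The median 3' UTR also shortened along these word A classes, from 3668 bases with the join to 2427 with the 6 shared bases alone and 871 with none. Word form and 3' UTR length were not separated in these classes. For word B, the 86 genes with the join AACGCTGA stood at -0.27. The 209 genes with the leading word alone stood at -0.086, the 252 with the shifted word alone at -0.063, the 741 with the 6 shared bases alone at -0.073, and the 9618 with none at 0.011. Genes with 1 copy of word A had a median of 0.17 (1131 genes), and genes with 2 or more copies had 0.25 (191 genes). Their median 3' UTRs were 3258 bases long with 1 copy and 5518 with 2 or more.

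**Figure D3:**
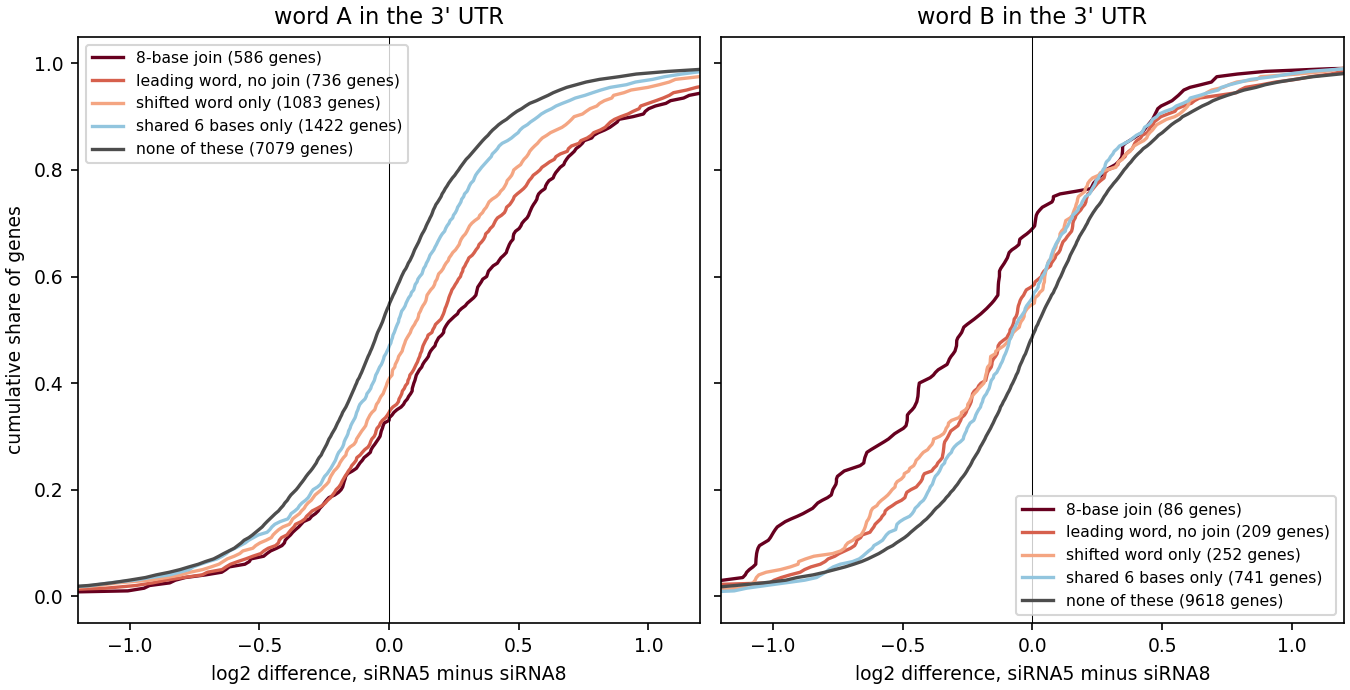
Cumulative share of genes (vertical axis) by log2 difference of siRNA5 minus siRNA8 (horizontal axis) for genes grouped by the longest form of word A (left) or word B (right) in the 3' UTR, 1 line per class with its number of genes. For word A the line of the 8-base join lies farthest to the right, with a median of 0.21 against -0.039 for genes with none of the forms, and for word B it lies farthest to the left, with -0.27 against 0.011.

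The length and base composition of transcripts moved with the words. The median 3' UTR was 3499 bases long in word A carriers and 1214 in other genes, and it was 3238 in word B carriers and 1360 in other genes. Within tertiles of 3' UTR length, the median difference with and without word A was 0.24 and -0.026 for short, 0.24 and -0.033 for middle and 0.17 and 0.017 for long 3' UTRs. Within tertiles of transcript GC content, it was 0.23 and 0.048 for low, 0.12 and -0.040 for middle and 0.14 and -0.040 for high GC. Word A carriers thus had the higher median in each of the 6 strata, which split the same genes by length and again by GC. Word B carriers had the lower median in each, from -0.31 against -0.021 for short 3' UTRs (24 carriers) to -0.034 against 0.054 for long ones (194 carriers). The tertiles did not equalize length: in the long one the median 3' UTR was 4421 bases with word A and 3408 without. That tertile held 947 of the 1322 word A carriers, and the short one held 68. The GC tertiles left length unequal as well. Median 3' UTRs with and without word A were 4023 and 1981 bases for low GC and 3085 and 1328 for middle GC. For high GC they were 1941 and 698. Word A upstream of the 3' UTR alone went with a median of 0.11 in 747 genes, and word B there with -0.094 in 882 genes.

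**Figure D4:**
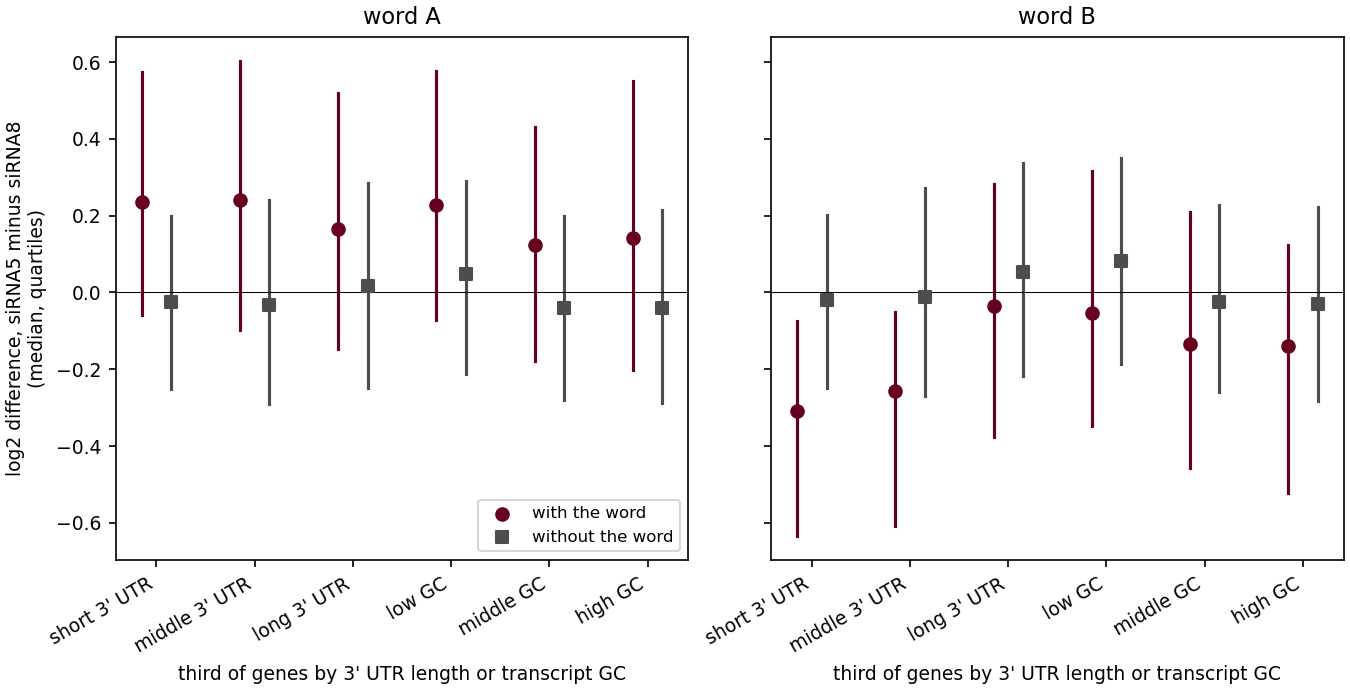
Median (symbol) and quartiles (line) of the log2 difference of siRNA5 minus siRNA8 (vertical axis) for genes with (dark red circle) and without (grey square) word A (left) or word B (right), within tertiles of genes by 3' UTR length and by transcript GC content (horizontal axis). Word A carriers sit above and word B carriers below the other genes in each tertile, while the quartile lines overlap throughout.

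Among the 15 genes with the largest positive differences, 9 held word A, which 12.1% of all genes with a 3' UTR do. In all, 13 held word A or its shifted form, which 22.1% do. NUP58 and HAVCR1 held neither. Among the 15 with the largest negative differences, 2 held word B, VOPP1 and TMEM164, and word B or its shifted form is held by 5.02% of all genes. CD274, LCP1, HMOX1, SERINC2 and DUSP10 held neither word nor a shifted form. Of the 259 genes 2-fold higher with siRNA5 that have a 3' UTR, 37.1% held word A, against 5.31% of the 226 that were 2-fold lower. Word B was held by 7.08% of the 2-fold lower genes and by 2.32% of the 2-fold higher genes. The words were picked by these same differences, so their shares in these sets follow in part from that choice. None (0) of the 2545 mature human miRNAs in the RefSeq table has a seed that pairs with word A or word B. Pairing of miRNA seeds with the shifted forms was not tested. Whether the words match the seeds of siRNA8 and siRNA5 was not tested.

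Without the 2744 genes that hold either word or its shifted form in the 3' UTR, a choice made after the values were seen, 8935 genes remained. They include the genes for which no 3' UTR was found, where the words could not be read. Of the 8935 genes, 1171 (13.1%) were called higher with siRNA5 and 1323 (14.8%) lower, and the median difference was -0.023. At 2-fold or more, 120 were higher and 189 lower.

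Both comparisons with NTC share the control libraries, so the direct calls are set beside them as a description. By the authors' deposited tables, a share of 24.4% of genes were called higher and 22% lower with siRNA5 against NTC, and 21% higher and 20.5% lower with siRNA8. Of the 2008 genes higher with siRNA5 in the direct test, 716 were called higher than NTC with siRNA5 alone and 538 lower than NTC with siRNA8 alone. A further 379 were called higher with siRNA5 and lower with siRNA8. Both siRNAs raised 199 and lowered 114, to unequal degree, and 62 were called with neither. Of the 1731 genes lower with siRNA5, 637 were called lower with siRNA5 alone, 482 higher with siRNA8 alone and 307 in opposite directions. Both siRNAs raised 86 and lowered 158 of these, and 61 were called with neither.

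In all, 686 genes were called in opposite directions against NTC, and the direct test uses the same values, so that their direct call follows from that choice. Besides the genes above, they include SLC7A11, the cystine importer that feeds glutathione synthesis, at 563 normalized counts with NTC, 919 with siRNA5 and 346 with siRNA8. PPP2R1B, a scaffold subunit of the phosphatase PP2A, was at 966 with NTC, 1584 with siRNA5 and 542 with siRNA8. In the other direction, SPP1, the secreted matrix protein osteopontin, was at 1891 with NTC, 1254 with siRNA5 and 2940 with siRNA8. GLIPR1 was at 1598 with NTC, 888 with siRNA5 and 2774 with siRNA8.

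Other genes were called in the same direction with both siRNAs against NTC and were not called in the direct test. HMGA2, an architectural chromatin protein, was at 522 with NTC, 1389 with siRNA5 and 1371 with siRNA8, a difference of 0.02 (95% interval -0.33 to 0.37). GNPNAT1, an enzyme of the hexosamine pathway, was at 534, 1041 and 1033 in the same order, a difference of 0.01 (95% interval -0.22 to 0.24). DOCK2, a Rac activator, was at 1005 with NTC, 369 with siRNA5 and 417 with siRNA8, a difference of -0.18 (95% interval -0.51 to 0.15). FAM199X was at 1881, 878 and 803, a difference of 0.13 (95% interval -0.09 to 0.35). These intervals leave room for differences of about the size of the bounds given. The reference genes GAPDH and ACTB had differences of -0.09 (95% interval -0.22 to 0.05) and -0.06 (95% interval -0.18 to 0.07).

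Gene lists were compared with the share of all genes called, 17.2% higher and 14.8% lower, and no list was tested. Counts without genes holding either word or a shifted form have another background, 13.1% higher and 14.8% lower. Members for which no 3' UTR was found stayed in those counts, although their words could not be read. Word A was picked for its high value, so leaving out its holders lowers the higher counts by that choice. Cell division genes were mostly higher with siRNA5. In bulk RNA, fewer dividing cells and less RNA per cell cannot be told apart. Of 45 measured genes of G2 and mitosis, 30 were higher and 1 was lower, with a median difference of 0.27. CENPF, a kinetochore protein, was at 8003 with NTC, 11793 with siRNA5 and 6856 with siRNA8, a difference of 0.78 (SE 0.11). ANLN, the cleavage furrow protein anillin, was at 9686, 13170 and 7752 in the same order, a difference of 0.76 (SE 0.063). The 1 lower member was FOXM1, a transcription factor that drives mitotic genes, at 2898 with NTC, 1628 with siRNA5 and 2375 with siRNA8. Of 49 DNA replication genes and E2F targets, 23 were higher and 2 lower, with a median of 0.20. CCNE2, a cyclin of S phase entry, was at 575 with NTC, 1058 with siRNA5 and 514 with siRNA8. Without genes holding either word or a shifted form, 26 of 40 mitosis genes and 14 of 37 replication genes were higher.

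Of 27 measured genes induced by p53, 12 were lower with siRNA5 and 1 was higher, with a median difference of -0.36. CDKN1A led this list among well measured genes, while GDF15, a stress cytokine, was at 18 with NTC, 32 with siRNA5 and 103 with siRNA8, at a mean where the SE was 0.60. Of 25 MAPK phosphatases and AP-1 genes, 8 were lower and 1 higher, with a median of -0.18. DUSP10 (difference -2.10) was the largest of these with a high mean.

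Genes of cholesterol synthesis and its regulation were called in 1 direction. Of 24 measured, 13 were higher with siRNA5 and 0 lower by the difference test, with a median of 0.39. At an unadjusted p under 0.05, 3 were lower, and with an SE rebuilt to include the shared NTC 14 were higher and 3 lower. MSMO1, a sterol demethylation enzyme, was at 984 with NTC, 1225 with siRNA5 and 341 with siRNA8, a difference of 1.84 (SE 0.13), and its 3' UTR holds word A. Without holders of the words, 9 of 19 members were higher and 0 lower (2 lower at an unadjusted p under 0.05), with a median of 0.26.

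Of 25 chaperones of the endoplasmic reticulum and unfolded protein response genes, 9 were higher with siRNA5 and 1 lower, with a median of 0.21, and 5 of 16 were higher without holders of the words. ATF6, a sensor of that response, was at 1369 with NTC, 1536 with siRNA5 and 588 with siRNA8, and holds 2 copies of word A. HSPA5, the chaperone BiP, was at 17485, 20215 and 15099, a difference of 0.42 (SE 0.049). Of 35 proteasome subunits, 20 were higher and 1 lower, with a median of 0.19 and a range of -0.23 to 0.60. PSMD11, a lid subunit, had the largest difference, 0.60 (SE 0.078), and PSMD2 was the lower one, at -0.23 (SE 0.059). Without holders of the words, 16 of 28 proteasome genes were higher and 1 was lower.

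Matrix and adhesion genes were mostly lower with siRNA5. Of 36 measured genes of the extracellular matrix and integrins, 21 were lower and 4 higher, with a median of -0.42. TNC, the matrix protein tenascin-C, was at 1766 with NTC, 973 with siRNA5 and 2513 with siRNA8, a difference of -1.37 (SE 0.11). ITGA2, a collagen receptor subunit, was at 172 with NTC, 174 with siRNA5 and 512 with siRNA8, a difference of -1.56 (SE 0.22). The higher members included THBS1 and COL6A1, a collagen VI chain, which was at 967, 693 and 297. Without holders of the words, 17 of 25 members were lower and 1 higher. Of 50 actin regulators, 22 were lower and 6 higher, with a median of -0.14, and 15 of 37 were lower and 3 higher without holders of the words. LCP1 and TWF1 were the extremes of that list, and VASP, which promotes filament growth, was at 1827 with NTC, 1283 with siRNA5 and 2265 with siRNA8.

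Of 34 lysosome and autophagy genes, 12 were lower and 5 higher, with a median of -0.16. WIPI2, which recruits autophagy factors to the forming membrane, was at 1334 with NTC, 696 with siRNA5 and 1459 with siRNA8, a difference of -1.07 (SE 0.10). NPC1, a lysosomal cholesterol exporter, was higher, at 1866, 2147 and 1543. Without holders of the words, 10 of 24 members were lower and 0 higher (1 higher at an unadjusted p under 0.05).

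Of 29 TREX and export factors, 7 were higher and 3 lower, with a median of 0.12. DDX39A, an RNA helicase of mRNA export, was at 2219 with NTC, 4542 with siRNA5 and 3121 with siRNA8, a difference of 0.54 (SE 0.080) on top of a level above NTC with both. DDX19A, a helicase at the pore, was at 1054 with NTC, 792 with siRNA5 and 1206 with siRNA8, and its close paralog DDX19B was at 249, 319 and 191. Reads of DDX19A and DDX19B may be hard to tell apart. Of 48 speckle proteins, 13 were higher and 2 lower, with a median of 0.084, and 9 of 31 were higher and 1 lower without holders of the words. The speckle scaffolds SON (difference 0.37, SE 0.055) and SRRM2 (0.22, SE 0.063) were among the higher ones.

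Of 15 members of the microRNA and RISC machinery, 4 were higher and 1 lower, and 1 of 9 was higher and 1 lower without holders of the words. TNRC6B, a partner of Argonaute, was at 435 with NTC, 588 with siRNA5 and 364 with siRNA8, and DROSHA, the nuclear microRNA processor, was lower by a difference of -0.30 (SE 0.073). Of 16 exon junction and nonsense-mediated decay factors, 1 was higher and 3 lower, led by SMG5 at -0.46 (SE 0.060). Without holders of the words 0 of 13 were higher, also at an unadjusted p under 0.05, and 2 were lower. The respiratory chain held 4 higher and 9 lower of 78, with a median of -0.024. COX7C stood far above its other members, the next being SDHC at 0.54 (SE 0.11), and NDUFA4 was the lowest, at 1771 with NTC, 1056 with siRNA5 and 1968 with siRNA8. Without holders of the words, 0 of 63 were higher, also at an unadjusted p under 0.05, and 7 were lower. Cytosolic ribosomal protein genes held 0 higher and 8 lower of 75 by the difference test (1 higher at an unadjusted p under 0.05, and 2 with the rebuilt SE), with a median of -0.059 and differences of at most 1.28-fold among the called genes.

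Lists on signalling and metabolism were mixed. Of 25 HIF-2 targets of renal carcinoma, 7 were higher and 7 lower. PDGFB, a growth factor chain, was at 1275 with NTC, 2461 with siRNA5 and 885 with siRNA8, while ANGPTL4, a lipase inhibitor, was at 96, 150 and 472 (SE of the difference 0.53). EPAS1, which encodes HIF-2 alpha, had a difference of -0.20 (95% interval -0.39 to -0.01, adjusted p = 0.0970), and it was called with the rebuilt SE (adjusted p = 0.00708). Of 30 NRF2 and oxidative stress genes, 6 were higher and 7 lower, with SLC7A11 (1.41) and HMOX1 (-2.03) as the extremes, and 2 of 23 were higher and 7 lower without holders of the words. Of 25 glycolysis enzymes, 5 were higher and 3 lower, led by the enolase ENO2, at 1164 with NTC, 1507 with siRNA5 and 572 with siRNA8. Of 22 amino acid response genes 7 were higher and 2 lower, and of 35 Rab GTPases 8 were higher and 4 lower. Without holders of the words, these counts were 4 higher and 2 lower of 18, and 3 higher and 3 lower of 23. Of 18 cytosolic heat shock genes 2 were higher and 1 lower, and of 19 long non-coding RNAs 4 were higher and 1 lower.

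Inflammatory genes held more higher than lower calls. Of 24 NF-kB and inflammatory genes, 9 were higher and 1 lower, with a median of 0.16, and 6 of 20 were higher without holders of the words, with a median of 0.045. TRAF1, an adaptor of TNF receptors, was at 302 with NTC, 483 with siRNA5 and 188 with siRNA8. The lower one was NFKB1, at -0.36 (SE 0.088). Of 34 interferon-stimulated genes, 8 were higher and 2 lower, with a median of 0.13, and 5 of 26 were higher and 2 lower without holders of the words. TRIM22, an antiviral tripartite motif protein, was lower, at 202 with NTC, 87 with siRNA5 and 245 with siRNA8.

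**Figure D5:**
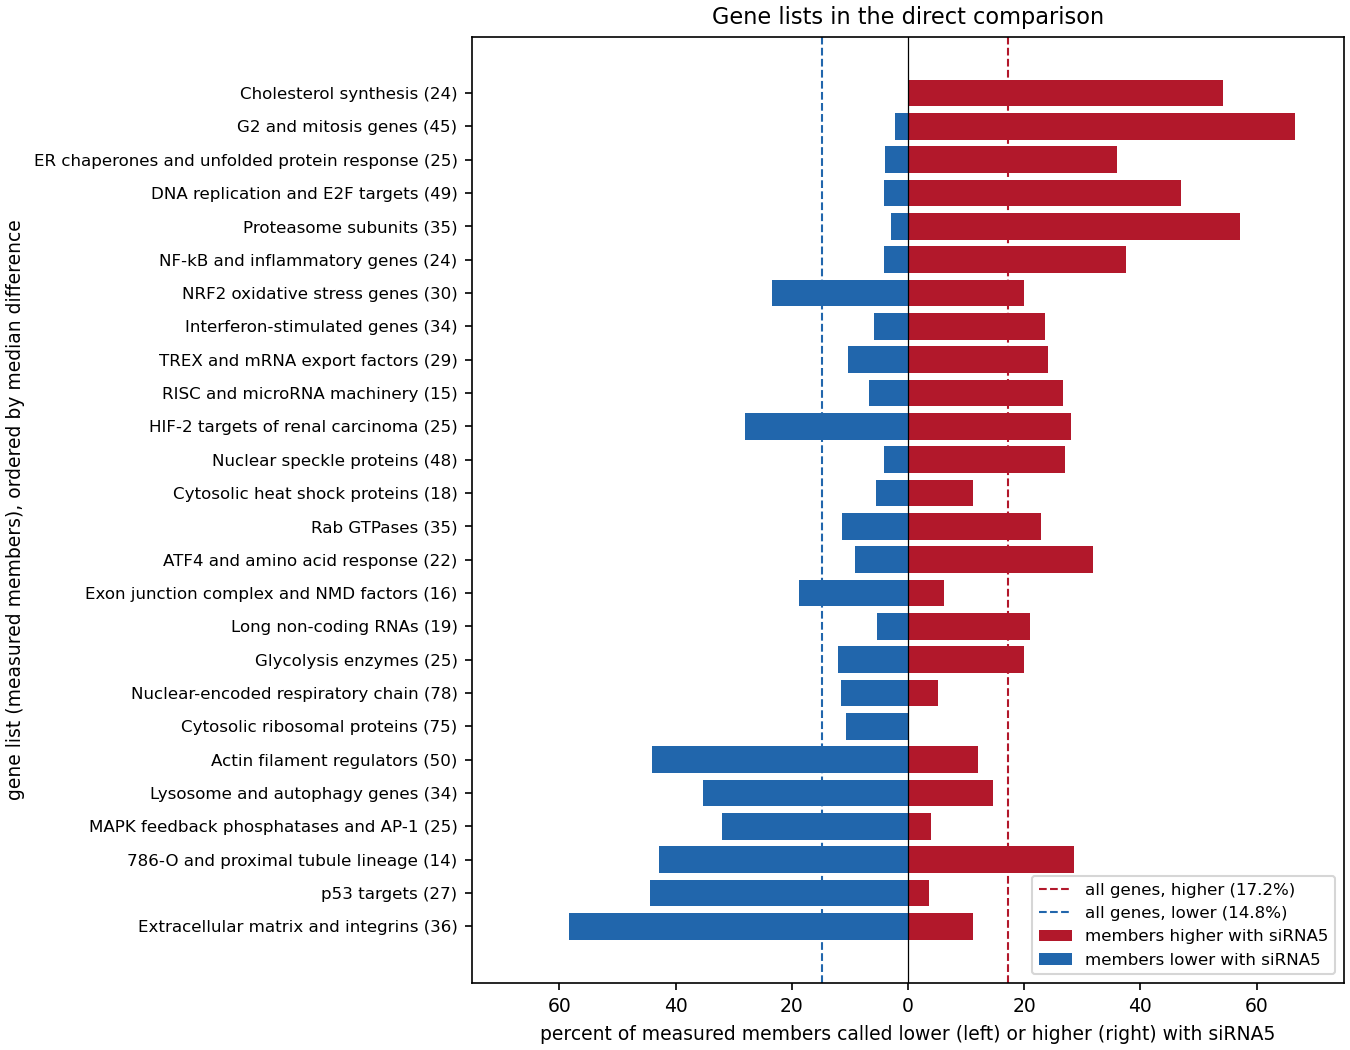
Percent of the measured members of each gene list called higher (red, right) or lower (blue, left) with siRNA5 than with siRNA8, for the 26 lists with at least 5 measured members, ordered by median difference; dashed lines mark the shares of all genes, 17.2% higher and 14.8% lower. Genes of G2 and mitosis, cholesterol synthesis and the proteasome reach far beyond the right line, and those of the extracellular matrix, p53 and actin beyond the left one.

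Markers of the labelled line were present. Of 18 genes of 786-O and proximal tubule identity, 14 were measured, and VIM, the mesenchymal filament vimentin, was at 57709 with NTC, 50765 with siRNA5 and 50807 with siRNA8. Within this list 4 were higher and 6 lower with siRNA5, among them KRT19, a keratin, at 557, 163 and 550, and CDH6, a kidney cadherin, at 1275, 1019 and 1937. Of 13 immune cell markers only CD68 was in the tables, at 213, 175 and 219 and not called. Of 11 endothelial and fibroblast markers 2 were in the tables. ACTA2, smooth muscle actin, was at 39 with NTC, 11 with siRNA5 and 92 with siRNA8, a difference of -3.04 (SE 0.59, adjusted p = 2.76e-06). PDGFRB was at 26, 29 and 8.9, a difference of 1.72, which was not called by the difference test. It was higher at an unadjusted p under 0.05, and it was called higher with the rebuilt SE. The part of other cells in any result was not tested.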

How the data were processed

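Polyadenylated RNA of 6 libraries was sequenced. The submitters' processing notes name STAR, Picard, HTSeq, DESeq2 and hg19, with no version or setting. Per the file headers, the authors deposited 1 table per siRNA against NTC, with a mean normalized count (a signal, identical in both tables) for 11681 rows, of which 11679 are genes. The 2 other rows count reads without a feature (6.23% of the summed means) and ambiguous reads (1.62%), and they stayed out of the gene tests. The authors' fold changes and standard errors are log2 values per the file headers, the deposited Wald score is their ratio, and the deposited p-values come plain and adjusted. Library depths are not known here. The smallest gene mean was 11.6 and the median 459.

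The difference of the log2 values was divided by the square root of the sum of both squared standard errors. The two-sided p-values came from the normal distribution and were adjusted over all genes after Benjamini and Hochberg. A rebuilt standard error took group means and a shared dispersion from the tables, where the 2 dispersions differed by a median of 2.08% for means of at least 500. It was a median of 0.708 times the upper bound. Computations used Python 3.11.15, numpy 2.4.6, pandas 2.3.3 and scipy 1.17.1, and the test was tried on simulated data. Fits to counts and fits without a replicate were not run, since they need values per library.

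The comparison, the 28 gene lists and the rules were chosen with earlier results of these data known. Named were ALYREF, the 15 largest called differences per direction, 8 opposite genes per direction and 4 shared ones, all at or above the median mean. Added were up to 2 called members per list and direction, the most abundant member of each list, and SON, SRRM2, EPAS1, GAPDH, ACTB and MALAT1. The text names those it needs, and some genes the rule names are not reported here. Words and their shifted forms were chosen after their values were seen.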

Additional observations from a re-analysis of the deposited data

Results flagged for a closer look

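Named genes that were called in opposite directions with the 2 siRNAs against the same NTC libraries are listed here, because the 2 knockdowns of ALYREF moved them apart. The direct difference uses the same values and adds no separate evidence. With siRNA5 higher, the log2 differences of siRNA5 minus siRNA8 were 2.36 for THBS1, 1.79 for NUP58 and 2.68 for SYPL1. They were 2.54 for SEMA3C, 2.45 for TVP23B and 1.55 for PPP2R1B. SLC7A11 had a difference of 1.41 and HAVCR1 of 1.69. With siRNA5 lower, the differences were -2.12 for LCP1, -1.64 for GLIPR1 and -1.50 for TMEM164. They were -1.50 for FOXD1, -2.47 for CD274 and -1.23 for SPP1. DUSP10 had a difference of -2.10 and B3GNT5, a glycolipid glycosyltransferase, of -1.11. Since the tables hold no values per library, no library could be checked for standing apart from its duplicate.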

How the results depend on the processing

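No paired analysis was possible because the deposited tables hold no values per library, and for the same reason no library could be left out. By the rebuilt standard error 5615 genes were called, 2903 higher and 2712 lower with siRNA5. With Bonferroni adjustment 1356 were called, 759 higher and 597 lower. With a log2 difference of at least 1 there were 515, 270 higher and 245 lower, and of these 154 (97 and 57) had a mean of at least 500, which is a smaller set of genes. Without genes holding a word, 1171 were higher, and at 2-fold 309 were called, 120 higher. The genes opposite against NTC fell from 686 (379 up with siRNA5, 307 up with siRNA8) to 423 (245 and 178) at a threshold of 0.01 and to 86 (49 and 37) with a log2 change of at least 0.5 with each siRNA. The count of all called genes stayed within 1.5 times at a threshold of 0.01, with minimum means, with centring and with the counter rows. Centring on genes with a mean of at least 500 moved the share higher among called genes from 53.7% to 51.4%. Word A had 0.181 over every transcript's 3' UTR and 0.242 for means of at least 500, and it was the highest word in both. Word B had -0.139 and was the lowest over every transcript's 3' UTR, and it had -0.105 in the 151 genes with means of at least 500, too few for the ranking. Of the 150 named genes, 3 gained a call with the rebuilt standard error, and none (0) lost a call or changed sign with it or with centring. With a minimum mean of 50, 1 gained a call and 145 kept theirs or stayed uncalled, and CSF2, FOSB, RAB27B and ACTA2, called otherwise, were not tested. List counts moved by over 1.5 times in 21 of 56 cases with the rebuilt standard error, in 14 without genes holding a word and in 3 with a minimum mean of 50. The depth per library is unknown, and for genes with a mean under 50 the median SE of 0.62 means that a 2-fold difference was often not detectable.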
